A study of Mus musculus with 6 samples.

Results

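Genes that mark the ovarian surface epithelium, the mesothelium and the gonad were examined in cultures of ID8, an epithelial ovarian cancer line of the mouse. The list held 33 genes, and every probe set carrying one of these symbols in the platform annotation was taken. Of the 33 genes 32 were measured, each by 1 probe set, among 19505 named genes and 22206 probe sets in all. Muc16, which encodes the tumor antigen CA125, had no probe set under that symbol and was not analysed here. The measured genes comprised 7 surface proteins of mesothelium, 3 enzyme or secreted protein genes, 11 transcription factors, 6 keratin or junction genes and 5 hormone pathway or stem cell genes.

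RNA was taken from cells kept without serum for 24 h that were then left unstimulated or exposed to 200 ng/mL of recombinant CCL6 for 6 h. CCL6 is a chemokine that macrophages of the omentum release. Each group held 3 cultures that the labels call biological replicates, with 1 Clariom S array each. All cultures were of 1 established line, so the values describe that line alone, with no normal ovarian or mesothelial tissue beside it. Expression was given on a log2 scale. An array averages over a whole culture, and fewer cells with a transcript cannot be told apart from less transcript per cell.

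The ovary is covered by a simple epithelium that is continuous with the mesothelium, the flat lining of the peritoneal cavity. Both derive from the coelomic epithelium of the embryo, which also gives rise to the supporting cells of the gonad, and they share the transcription factor WT1 and the simple keratins. PAX8, in contrast, marks epithelium of the oviduct and other Müllerian tissue, and FOXL2 marks granulosa cells. The first question was which of these lineage genes ID8 cells transcribe at a level that the array can tell from background. The second was whether CCL6 changed them.

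Most genes of mesothelium and ovarian surface, and several of the gonad, were read above background in ID8 cells. Of the 32 measured genes 24 lay above background in at least 1 group, where 56.5% of all probe sets did. They included Wt1, the mesothelial surface genes Msln, Upk3b, Upk1b, Lrrn4, Pdpn and Gpm6a, the keratins Krt8, Krt18 and Krt19, Gata4 and Gata6, the anti-Müllerian hormone receptor gene Amhr2 and the steroidogenic gene Star. Pax8, Foxl2, Tcf21, Lhx2, Pgr, Ocln, Aldh1a2 and Igfbp5 were not above background in either group. Amhr2 differed 29.0-fold between the lowest and the highest of the 6 arrays, with no separation by treatment. None of the 32 genes passed an adjusted p under 0.05 for CCL6 against unstimulated cells.

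Background was set at 4.85, the 95th percentile of the mean log2 values of 1450 olfactory, vomeronasal and taste receptor probe sets. Such receptors are not thought to be used by ovarian cells. A gene counted as above background where the mean of either group exceeded that level. On the arrays taken singly, 20 of the genes exceeded each array's own 95th percentile on all 6 arrays and 8 did so on none. With the 99th percentile, 5.49, the count of 24 became 21, since Cd200, Esr1 and Krt7 lay between the 2 levels. Transcripts of genes below the level may still be present.

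Promoter sequence is shown first for 3 genes picked from those above background, Amhr2, Upk3b and Krt8. The motifs to mark were chosen because Gata4 and Gata6 and the nuclear receptor gene Nr5a1 were themselves above background. Each line gives the 250 bases before the transcription start from RefSeq on build GRCm38.p6, with capitals for the GATA core GATAA and for AAGGTCA, a core that orphan nuclear receptors such as steroidogenic factor 1 bind, each on either strand.
Amhr2 (chr15:102445117-102445366, plus strand): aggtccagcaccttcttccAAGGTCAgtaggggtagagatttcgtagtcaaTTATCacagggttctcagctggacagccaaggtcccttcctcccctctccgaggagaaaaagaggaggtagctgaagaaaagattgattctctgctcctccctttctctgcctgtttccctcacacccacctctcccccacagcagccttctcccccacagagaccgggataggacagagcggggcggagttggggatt
Upk3b (chr5:136038246-136038495, plus strand): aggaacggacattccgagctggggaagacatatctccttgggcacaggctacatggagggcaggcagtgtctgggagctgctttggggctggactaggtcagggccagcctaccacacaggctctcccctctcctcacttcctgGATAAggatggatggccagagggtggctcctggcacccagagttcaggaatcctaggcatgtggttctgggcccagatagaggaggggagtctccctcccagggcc
Krt8 (chr15:102004343-102004592, minus strand): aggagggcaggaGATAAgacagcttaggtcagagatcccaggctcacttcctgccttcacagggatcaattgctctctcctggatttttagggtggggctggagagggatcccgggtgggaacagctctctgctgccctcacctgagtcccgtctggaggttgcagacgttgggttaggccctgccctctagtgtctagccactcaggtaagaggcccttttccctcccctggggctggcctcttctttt
The Amhr2 window held AAGGTCA 231 bases and a GATA core 199 bases before the start. The Upk3b window held a GATA core 106 bases before the start and the Krt8 window 1 at 238 bases. Windows were found for 25 of the 33 genes, 31 windows in all. GATAA occurred in 12 of these 31 and in 22.6% of all 32851 windows in the table, and AAGGTCA in 1 of 31 and in 4.1% of all. The genes printed above were picked out for display, so that all of them held GATAA does not describe the list. Genes with and without the motif lay on both sides of the background level. Of the genes above it, Aldh1a1, Cd200, Esr1, Krt18, Lhx9 and Tjp1 also had a window with GATAA. Bnc1, Gpm6a, Krt7, Lrrn4, Nr2f1, Nr2f2 and Pdpn did not. Of the genes not above it, Pax8 and Tcf21 held the motif, whereas Aldh1a2, Foxl2, Igfbp5, Lhx2, Ocln and Pgr did not. Whether the motif goes with expression was not tested. These matches describe letters and are not evidence of binding.

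The Aldh1a pair is shown because its members fell on opposite sides of the background level. The capitals here mark CG dinucleotides.
Aldh1a1 window 1 (chr19:20492333-20492582, plus strand): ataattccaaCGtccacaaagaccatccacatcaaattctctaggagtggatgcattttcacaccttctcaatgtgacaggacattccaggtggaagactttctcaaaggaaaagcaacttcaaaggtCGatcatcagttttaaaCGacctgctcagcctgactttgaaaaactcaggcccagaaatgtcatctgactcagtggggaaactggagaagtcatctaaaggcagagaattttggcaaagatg
Aldh1a1 window 2 (chr19:20601718-20601967, plus strand): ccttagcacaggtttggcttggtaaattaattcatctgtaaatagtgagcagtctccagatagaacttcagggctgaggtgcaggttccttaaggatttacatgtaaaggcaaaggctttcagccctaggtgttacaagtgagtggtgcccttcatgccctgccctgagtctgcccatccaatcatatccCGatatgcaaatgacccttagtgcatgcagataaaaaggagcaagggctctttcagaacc
Aldh1a2 (chr9:71215539-71215788, plus strand): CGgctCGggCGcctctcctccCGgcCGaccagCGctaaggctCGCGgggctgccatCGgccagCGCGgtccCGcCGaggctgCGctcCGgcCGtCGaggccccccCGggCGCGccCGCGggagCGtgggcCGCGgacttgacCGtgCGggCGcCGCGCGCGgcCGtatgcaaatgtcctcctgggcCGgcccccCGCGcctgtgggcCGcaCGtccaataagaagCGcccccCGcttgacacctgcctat
The table held 2 windows for Aldh1a1, with 3 and 1 CG dinucleotides, and 1 for Aldh1a2, with 40. Of all windows 37.8% had 3 or fewer and 98.7% had fewer than 40. Among the 16 measured genes above background with a window, the CG count, taken from the richest window of each gene, had a median of 5 and ran from 1 to 39. Among the 8 genes not above background the median was 16, with a range of 4 to 40. The ranges of these counts overlapped.

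**Figure D1:**
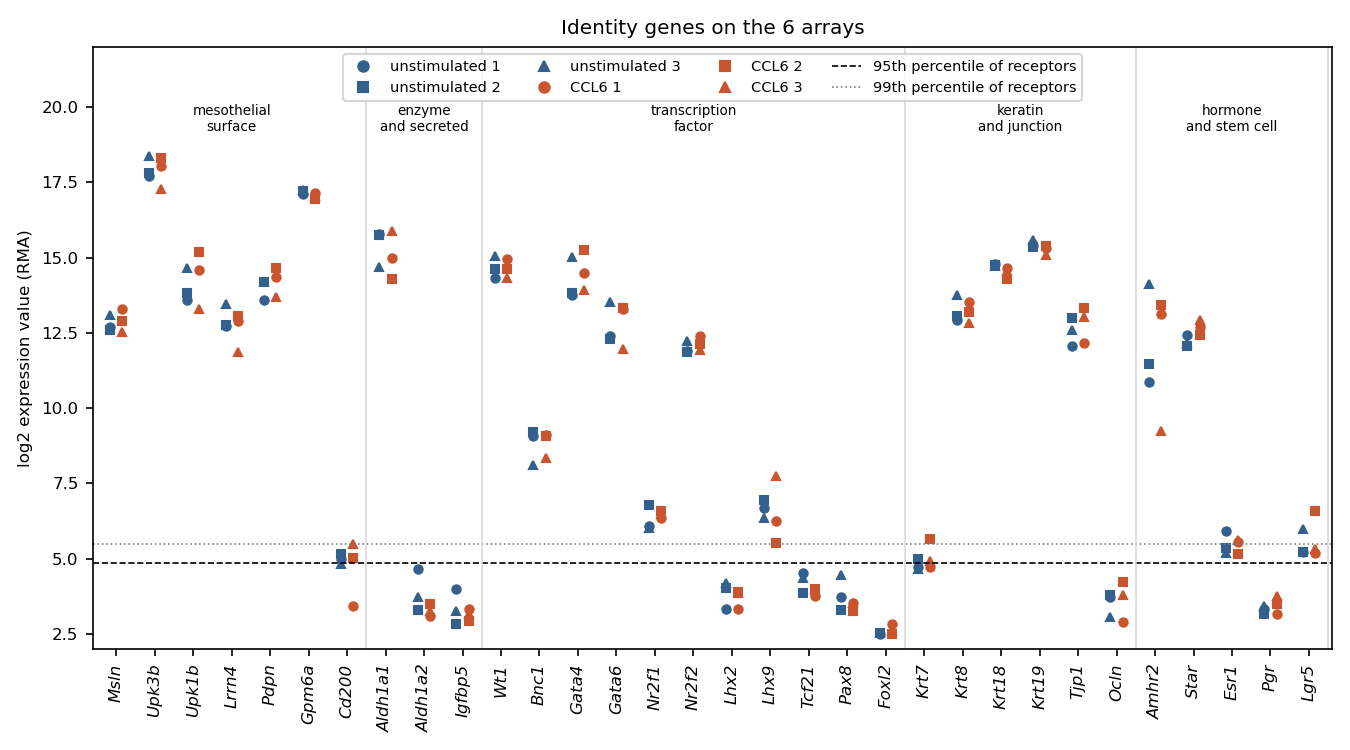
The log2 expression value of each of the 32 measured genes is plotted for every array, in blue for unstimulated and in orange for CCL6, with a different symbol for each replicate number. The dashed and dotted lines are the 95th and 99th percentiles of the receptor probe sets, 4.85 and 5.49, and 8 genes had no array above that array's own 95th percentile.

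Mesothelial surface genes were above background in 7 of 7 measured cases, where 56.5% of all probe sets were. Cd200 was among the 7 only through its unstimulated mean of 4.99, with a mean of 4.64 after CCL6. Mesothelin, encoded by Msln, is a membrane-anchored protein of mesothelium and of many ovarian cancers. It read 12.70, 12.61 and 13.08 in unstimulated replicates 1 to 3 and 13.31, 12.90 and 12.53 in the CCL6 replicates, so that both the highest and the lowest value fell in the CCL6 group. Upk3b, which encodes a uroplakin that also marks mesothelium, read 17.71, 17.81 and 18.39 without and 18.04, 18.31 and 17.27 with CCL6. Upk1b, another gene named for a uroplakin, read 13.60, 13.81 and 14.67 without and 14.60, 15.18 and 13.28 with CCL6. For both uroplakin genes CCL6 replicate 3 was the lowest array. Lrrn4, a leucine-rich repeat protein gene of mesothelium, read 12.72, 12.76 and 13.45 without the chemokine and 12.89, 13.07 and 11.87 with it. Unstimulated replicates 1 and 2 lay inside the range of the CCL6 group and replicate 3 above it.

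Pdpn encodes podoplanin, a mucin-like protein of mesothelium and lymphatic vessels. It read 13.58, 14.18 and 14.18 in unstimulated cultures and 14.34, 14.65 and 13.70 after CCL6. The groups overlapped through CCL6 replicate 3. Gpm6a, which encodes a membrane glycoprotein known from neurons and found in mesothelium, was the steadiest of the genes above background, at 17.11, 17.20 and 17.25 and at 17.16, 16.96 and 17.05. Only 1.44% of the 12544 probe sets above background had a smaller range over the 6 arrays. Cd200, an immune checkpoint ligand gene, lay near the background level. It read 4.996, 5.16 and 4.82 without CCL6 and 3.42, 5.01 and 5.48 with it, and exceeded the array's own background on 3 of 6 arrays.

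The retinaldehyde dehydrogenases Aldh1a1 and Aldh1a2 make retinoic acid. Aldh1a1 read 15.79, 15.75 and 14.69 in unstimulated cultures and 15.00, 14.29 and 15.88 after CCL6. Unstimulated replicate 3 and CCL6 replicates 1 and 2 held the 3 lower values. Aldh1a2, a marker of embryonic coelomic epithelium and of mesothelium, had means of 3.90 ± 0.69 and 3.27 ± 0.20 (SD, n = 3 in each group) and was above background on 0 of 6 arrays. Igfbp5, a secreted binding protein of insulin-like growth factors, was likewise above on 0 arrays, with means of 3.35 ± 0.59 and 3.14 ± 0.20 (SD, n = 3 in each group).

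Of the 11 transcription factors 7 were above background, near the share of 56.5% of all probe sets. Wt1, which is required for the coelomic epithelium and the gonad to form, read 14.33, 14.63 and 15.07 in unstimulated cultures and 14.95, 14.62 and 14.33 after CCL6. The group means were 14.68 ± 0.37 and 14.63 ± 0.31 (SD, n = 3 in each group), and the ranges of the groups nearly coincided. Bnc1, a zinc finger gene of keratinocytes, germ cells and mesothelium, read 9.09, 9.19 and 8.10 and then 9.10, 9.09 and 8.34. In both groups replicate 3 was the lowest array.

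Gata4 and Gata6 are zinc finger factors of the early gonad and of mesothelium, and both were above background on all 6 arrays. Gata4 read 13.77, 13.82 and 15.01 without CCL6 and 14.49, 15.25 and 13.91 with it. Gata6 read 12.39, 12.29 and 13.54 and then 13.31, 13.33 and 11.97. In both genes unstimulated replicate 3 and CCL6 replicates 1 and 2 were the 3 highest arrays. The orphan nuclear receptor genes Nr2f1 and Nr2f2 were also above on all 6. Nr2f2, which is active in mesenchyme and mesothelium, read between 11.86 and 12.40, and Nr2f1 between 6.03 and 6.76.

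The LIM homeobox pair was split. Lhx9, which is needed for the gonad to form in mice, was above background on 6 of 6 arrays, at 6.68, 6.94 and 6.35 in unstimulated cultures and 6.23, 5.50 and 7.73 after CCL6. The highest and the lowest array were both of the CCL6 group, with a 4.68-fold spread between them. Lhx2 was above background on 0 arrays, with means of 3.85 ± 0.45 and 3.69 ± 0.31 (SD, n = 3 in each group). Tcf21, a factor of visceral mesenchyme, had means of 4.24 and 3.90 and Pax8 of 3.82 and 3.44. Foxl2 had means of 2.51 and 2.63 and lay above 0.552% of the receptor probe sets.

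Simple epithelia pair a type II keratin with a type I keratin. The type II gene Krt8 and the type I genes Krt18 and Krt19 were above background on all 6 arrays. Krt8 read 12.93, 13.05 and 13.77 in unstimulated cultures and 13.52, 13.21 and 12.84 after CCL6, with overlap between groups. Krt18, the usual partner of Krt8, read 14.78, 14.77 and 14.73 and then 14.64, 14.30 and 14.57. It was the 1 gene of the 32 whose groups did not overlap, lower after CCL6, where 8.19% of all probe sets had groups without overlap in either direction and 4.41% in that direction. Krt19 read between 15.10 and 15.58. Krt7, another type II keratin, lay near background at 4.70, 4.99 and 4.65 and at 4.72, 5.65 and 4.91, and exceeded the array's own level on 2 of 6 arrays.

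Tjp1 encodes ZO-1, which links junction proteins to actin. It read 12.07, 13.00 and 12.60 in unstimulated cultures and 12.16, 13.34 and 13.02 after CCL6, so that replicate 1 was the lowest array in both groups. Ocln, the gene of the tight junction protein occludin, was not above background, with means of 3.53 ± 0.41 and 3.64 ± 0.67 (SD, n = 3 in each group).

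Amhr2 encodes the type II receptor of anti-Müllerian hormone, which is made in the gonad and in ovarian surface epithelium. It read 10.88, 11.48 and 14.11 in unstimulated replicates 1 to 3 and 13.14, 13.43 and 9.25 in CCL6 replicates 1 to 3. Of the 12544 probe sets above background, 99.9% had a smaller range over the 6 arrays. The group means were 12.15 ± 1.72 and 11.94 ± 2.33 (SD, n = 3 in each group), and the spread within each group far exceeded their difference of -0.21. Star, whose protein carries cholesterol into mitochondria for steroid synthesis, read 12.44, 12.05 and 12.16 without CCL6 and 12.69, 12.44 and 12.94 with it. The groups met at 12.44, the value of unstimulated replicate 1 and of CCL6 replicate 2.

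The estrogen receptor gene Esr1 read 5.93, 5.35 and 5.18 in unstimulated cultures and 5.55, 5.16 and 5.61 after CCL6. It was above background on 5 of 6 arrays. The progesterone receptor gene Pgr had means of 3.30 and 3.46 and was above on 0 arrays. Lgr5, a receptor for R-spondins and a stem cell marker of the mouse ovarian surface, read 5.20, 5.22 and 5.99 and then 5.20, 6.57 and 5.32. Its highest array was CCL6 replicate 2, and 5 of 6 arrays exceeded their own background.

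Of the 24 genes above background 14 had a range of over 1 on the log2 scale across the 6 arrays, where 49.4% of all probe sets above background did. Many shared an order of arrays that did not follow treatment. For 10 of the 24 the 3 highest arrays were unstimulated replicate 3 and CCL6 replicates 1 and 2, namely Msln, Upk3b, Upk1b, Lrrn4, Pdpn, Gata4, Gata6, Nr2f2, Krt8 and Amhr2. These 10 made up 41.7% of the 24, whereas 18.1% of all probe sets above background had the same 3 arrays highest. For Aldh1a1 and Lhx9 those 3 arrays were the lowest, an order found in 14.6% of all probe sets above background. This order was noticed after the values were seen and is given as a description.

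The same order was seen in a list of proliferation genes, 7 of 7 of which had these 3 arrays highest. It was also that of 6 of 8 other mesothelial genes above background, 2 of 2 Sertoli cell genes and 2 of 3 Müllerian and tubal genes. In each of the other lists with genes above background, 0 to 2 genes had it, among them 2 of 9 in the retinoic acid pathway and 2 of 5 of columnar epithelium and tight junctions. The mean of the proliferation list was 12.11, 12.49 and 13.47 in unstimulated replicates 1 to 3 and 13.22, 13.61 and 12 in CCL6 replicates 1 to 3. On the first principal component of the 12544 probe sets above background, the unstimulated arrays scored -34.1, -29.7 and 46.0 and the CCL6 arrays 23.4, 34.9 and -40.5. The part of proliferation or of culture conditions in the spread of the identity genes was not tested. Some genes were read more evenly, among them Nr2f2, which shared this order of arrays. The fold between the lowest and the highest array was 1.22 for Gpm6a, 1.40 for Krt18, 1.40 for Krt19 and 1.45 for Nr2f2.

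**Figure D2:**
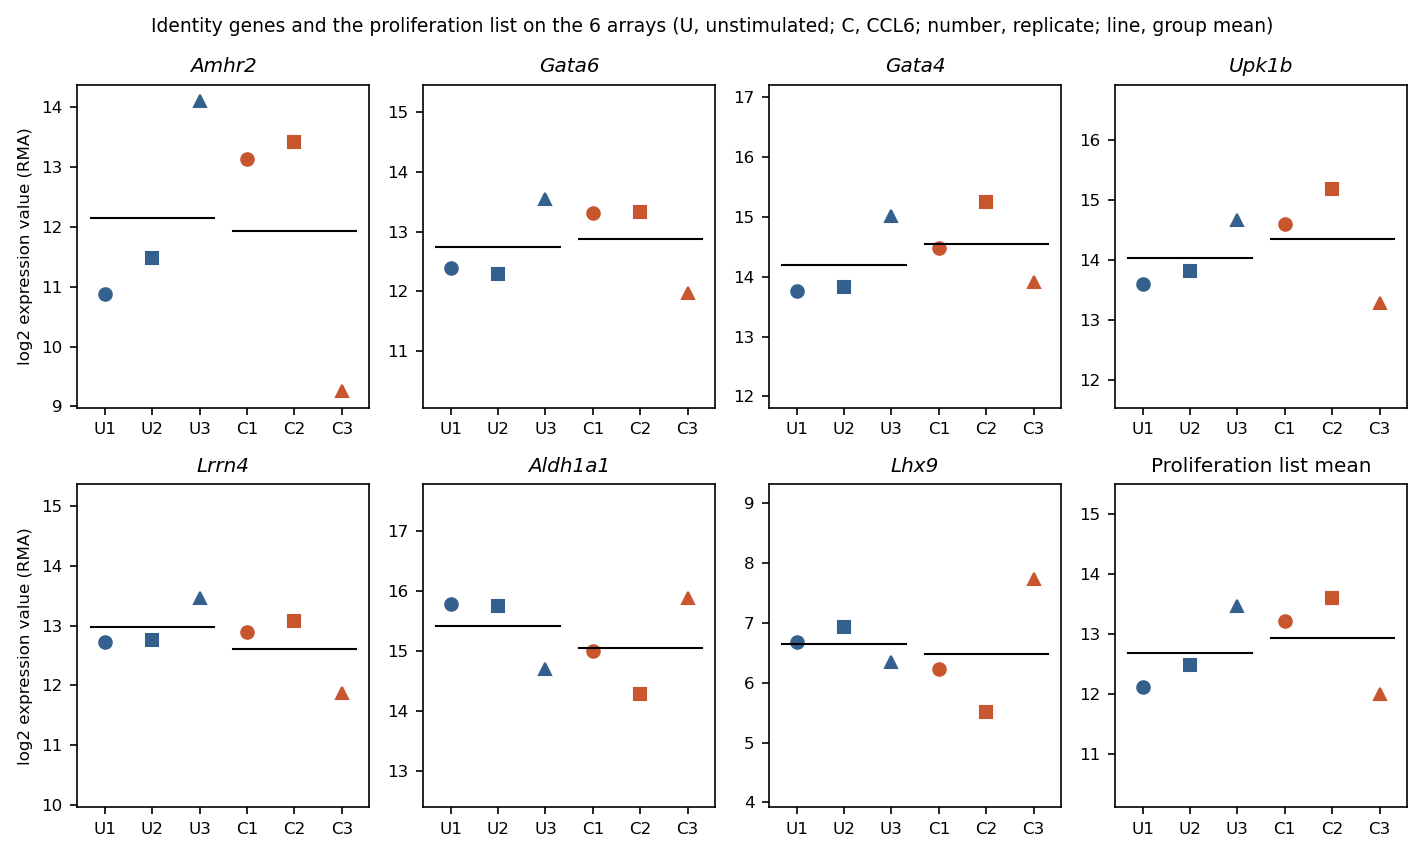
Log2 values of Amhr2, Gata6, Gata4, Upk1b, Lrrn4, Aldh1a1 and Lhx9 and the mean of the proliferation list are plotted for the 3 unstimulated (U) and 3 CCL6 (C) arrays, with the group mean as a line and the same span on each vertical axis. U3, C1 and C2 were high and U1, U2 and C3 low for the first 5 genes and for the list, and the reverse held for Aldh1a1 and Lhx9, with Amhr2 running from 9.25 to 14.11.

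With respect to CCL6, the 32 genes were divided at 15 higher and 17 lower, with a median log2 difference of -0.04. Over all 22206 probe sets 48.5% were higher and the median was -0.01. In limma's fit across all probe sets 0 of the 32 genes had an unadjusted p under 0.05, where 3.08% of all probe sets did. After Benjamini-Hochberg adjustment 0 of the 32 passed 0.05, as did 0% of all probe sets, and the smallest adjusted p among the 32 was 0.999. With the methods' t-test 0 of the 32 genes passed 0.05 unadjusted, where 3.66% of all probe sets did, and 0 passed adjusted, where 0.0045% (1 probe set) did.

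The difference of Star was the largest upward, at 0.47 on the log2 scale (SE 0.25, 95% confidence interval -0.09 to 1.04) or 1.39-fold, with an unadjusted limma p of 0.0921 and an adjusted p of 0.999. Wt1 differed by -0.04 (95% confidence interval -0.69 to 0.61). The intervals were wide for most genes, with a median reach of 0.72 to either side. With 3 arrays per group, smaller differences were not detectable for a typical gene even before adjustment. After adjustment larger ones did not pass either. Over all probe sets the differences ran from -3.26 to 3.00, and the smallest adjusted limma p was 0.999. For Amhr2 the interval ran from -2.84 to 2.42. Gpm6a had one of the narrower intervals, from -0.63 to 0.37 around a difference of -0.13.

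By role, the 7 surface genes had a median difference of -0.10 and ran from -0.37 for Lrrn4 to 0.33 for Upk1b. All 3 enzyme or secreted protein genes were lower after CCL6, with Aldh1a1 at -0.35 (SE 0.45) and with both others not above background. Among the 11 transcription factors 6 were higher and 5 lower, and Gata4 at 0.35 (SE 0.44) was the largest upward. The keratin and junction genes ran from -0.26 for Krt18 (SE 0.23, unadjusted limma p of 0.281, adjusted p of 0.999) to 0.31 for Krt7 (SE 0.30). No role had a gene at an unadjusted p under 0.05.

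Several of these differences turned on single arrays. The log2 difference of Amhr2 was -0.21 on all 6 arrays and -0.96 when CCL6 replicate 2 was left out. It was 1.13 when CCL6 replicate 3 was left out and 0.76 when unstimulated replicate 3 was. With both arrays numbered 3 left out, which was chosen after seeing the data, it was 2.11 (unadjusted limma p of 0.00032, adjusted p of 0.123), and 6 of the 32 genes then had an unadjusted p under 0.05, where 11.2% of all probe sets did. The arrays that remained were the 2 unstimulated arrays with low and the 2 CCL6 arrays with high proliferation lists, so treatment and array order cannot be told apart in it. With a block for the sign of the first component, also chosen after seeing the data, the difference of Amhr2 was -1.38 (unadjusted limma p of 0.00228, adjusted p of 0.795) and that of Lrrn4 was -0.67 (unadjusted p of 0.0192, adjusted p of 0.795). In that fit 2 of the 32 genes had an unadjusted p under 0.05, where 6.15% of all probe sets did. The component was computed from the same values, Amhr2 and Lrrn4 included.

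**Figure D3:**
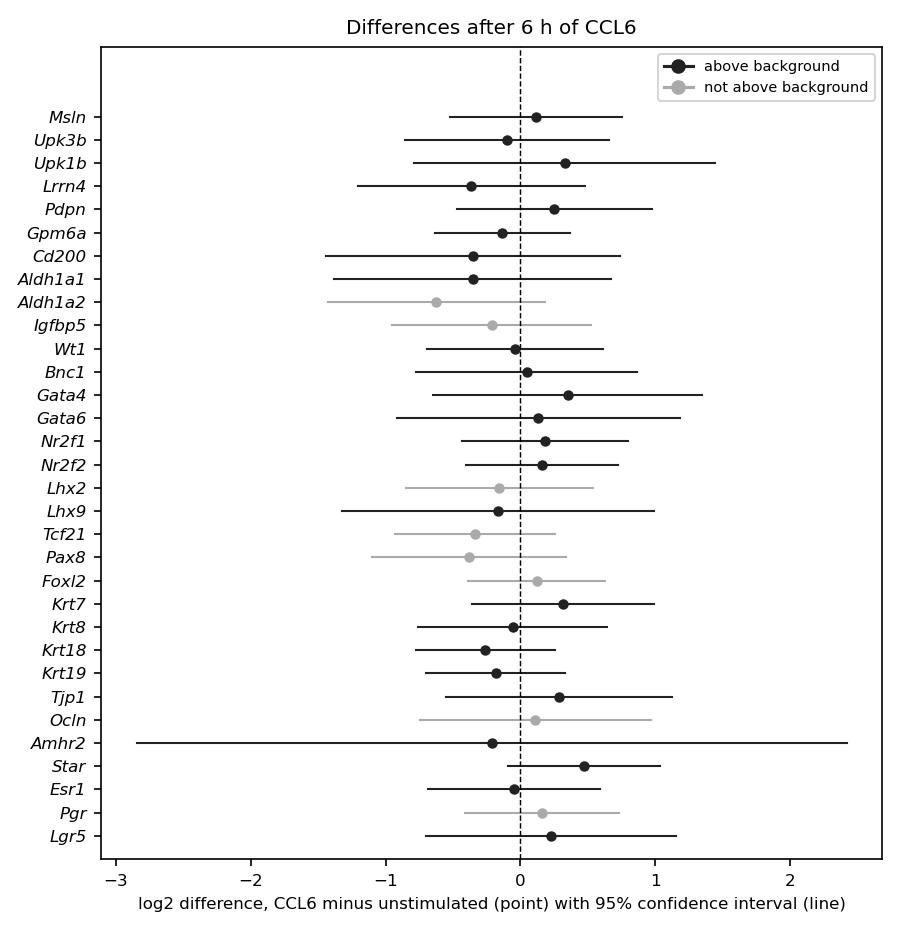
Points are log2 differences of CCL6 minus unstimulated cells for the 32 genes and lines their 95% confidence intervals from limma, in black for genes above background and in grey for the others. All 32 intervals include 0, and the interval of Amhr2 is the widest.

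Other lineage lists set the profile in context. Their counts above background stand beside the 56.5% of all probe sets that were above it, and several lists lay near that share. Of 10 other mesothelial genes 8 were above background, among them Efemp1, which encodes a matrix glycoprotein, and the R-spondin gene Rspo1. Calb2, which encodes the mesothelial marker calretinin, was not, with means of 3.53 and 3.10. Rspo1 read 4.24, 4.69 and 6.49 in unstimulated cultures and 6.87, 6.94 and 5.20 after CCL6, a difference of 1.20 (SE 0.64, unadjusted limma p of 0.0963, adjusted p of 0.999). Its groups overlapped, and the 3 high arrays were those of Gata6 and Amhr2.

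Of 11 measured genes of columnar epithelium and tight junctions 5 were above background. Epcam, a defining gene of columnar epithelium, had means of 3.77 and 4.01, below the background level on all 6 arrays. Cdh1, which encodes E-cadherin, was above on all 6 at 8.88, 8.06 and 8.08 and at 7.67, 6.39 and 8.67. The claudin gene Cldn3 read 5.16, 5.18 and 8.50 without and 7.45, 8.54 and 4.84 with CCL6, again high on unstimulated replicate 3 and CCL6 replicates 1 and 2.

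Müllerian and tubal genes were above background in 3 of 7 measured cases. Pax2 and Sox17, both factors of Müllerian epithelium, had means of at most 3.06 in either group, and the oviduct glycoprotein gene Ovgp1 was above background on all 6 arrays with means of 7.96 and 7.44. Among 7 granulosa genes 3 were above, and the follicle-stimulating hormone receptor gene Fshr, at means of 3.60 and 3.39, was not. The inhibin subunit genes Inha and Inhba had means of 7.42 and 7.22 and of 10.71 and 11.34.

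Steroidogenic genes were above background in 2 of 5 measured cases. The defining enzymes Cyp11a1, Cyp17a1 and Hsd3b1 had means of 3.06 to 4.24, all below the level, although Star and Nr5a1, the gene of steroidogenic factor 1, were above it. Nr5a1 read 12.22 ± 0.12 and 12.39 ± 0.18 (SD, n = 3 in each group). Of the 5 Sertoli cell genes Sox9 and Dhh were above. Sox9, which directs testis development and is also active in many epithelia, read 8.50, 8.24 and 12.02 in unstimulated cultures and 11.04, 12.60 and 8.51 after CCL6. Dmrt1, another testis factor, was at means of 4.08 and 3.63. Germ cell genes were above in 2 of 7 cases, Dazl and Nobox, neither of them on any single array by that array's own level, and Ddx4, Dazl and Zp3 had means between 2.65 and 4.96.

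In the retinoic acid pathway 9 of 12 measured genes were above background, including the receptor genes Rara, Rarb and Rarg. Cyp26b1, which encodes a retinoic acid-degrading enzyme, had a difference of 0.76 (SE 0.25, unadjusted limma p of 0.0139, adjusted p of 0.999), but its means of 3.66 and 4.42 were both below background. Of 7 genes of R-spondin signaling and Wnt feedback 4 were above. Lgr4, an R-spondin receptor gene related to Lgr5, read between 14.82 and 15.03 on the 6 arrays, whereas Lgr6 was not above background and Znrf3 was.

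Markers of cells that could contaminate a culture were mostly at background. Among 6 macrophage genes only Cd14 was above, with means of 7.58 without and 7.45 with CCL6, and Ptprc, Adgre1 and Itgam had means of at most 4.33. Endothelial genes, including Pecam1, Cdh5 and Tek, were above in 0 of 5 cases. Adipocyte genes, including Adipoq, Plin1 and Fabp4, were above in 0 of 5, and Fabp4 had an unadjusted limma p of 0.0468 (adjusted p of 0.999) with both means below background. Of 7 fibroblast genes 3 were above, namely Col1a1, Dcn and Acta2, whereas Pdgfrb and Col1a2 were not. Without and with CCL6 the means were 10.21 and 10.75 for Col1a1, 15.58 and 15.72 for Dcn and 9.94 and 9.14 for Acta2. The 8 proliferation genes had 7 measured members, all above background, among them Mki67, Top2a and Cdk1.

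**Figure D4:**
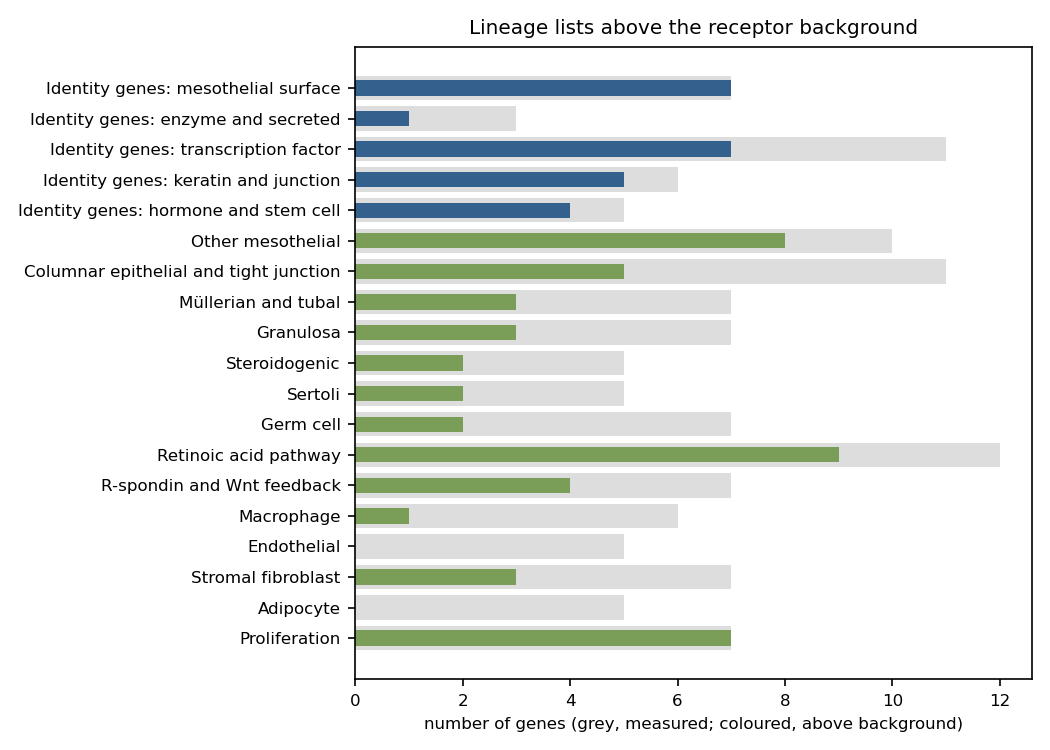
The grey bar is the number of measured genes and the coloured bar the number above background in either group, for the 5 roles of the identity genes in blue and for 14 other lists in green. Mesothelial surface genes were above in 7 of 7 and other mesothelial genes in 8 of 10 cases, and endothelial and adipocyte genes in 0 of 5 each. Of the 7 surface genes, Cd200 was above only in its unstimulated mean. Of all probe sets 56.5% were above background.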

How the data were processed

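Biotin-labelled RNA from each culture was read on 1 Affymetrix Clariom S array for mouse. The deposited values are log2 intensities from RMA, in which the authors subtracted background, brought the arrays to a common distribution and combined probes into probe sets. For the software version and the genome build, nothing is given in the sources used here. The base of the logarithm was inferred from the range of 1.93 to 19.19. Array medians were 5.42 to 5.49, and 12260 to 12518 probe sets per array lay above background. The number of arrays limits precision, and p-values set the difference between the groups against the spread between cultures of the same group.

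Gene names came from GEO's platform annotation: 19572 probe sets had 1 symbol, 0 several and 2634 none. The gene identifiers of all 32 measured genes matched the RefSeq table of GRCm38.p6. CCL6 was compared with unstimulated cultures in limma 3.58.1 (R 4.3.3) with lmFit and eBayes. The test was two-sided, and p-values were adjusted by the Benjamini-Hochberg method across 22206 probe sets. An exact permutation test of 3 against 3 arrays cannot go below 0.1. The scripts were tested on simulated data. Alternatives were other normalizations, background levels, variance models, array weights, a replicate block, the methods' t-test and leaving out arrays.

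Every gene on the identity list was named. From each of 14 other lists (112 genes, 101 measured) the first 3 measured genes were named, with any at an unadjusted p under 0.05, and a few others were chosen after their values were seen. The genes and lists were chosen with earlier results of these data known. Promoter windows came from the RefSeq table and were shortened to the 250 bases before the start.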

Additional observations from a re-analysis of the deposited data

How the results depend on the processing

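No alternative gave an identity gene an adjusted p under 0.05. Repeated quantile normalization, median centring, a variance trend with robust variances, the methods' t-test and restriction to probe sets above background reversed 0 of the log2 differences (CCL6 minus unstimulated), although 3 genes (Foxl2, Krt18 and Star) rather than 1 had groups without overlap under median centring, where 8.3% of all probe sets did. The labels do not say whether the replicate numbers pair the cultures. Same-numbered arrays had correlations of -0.0833, -0.232 and -0.661 between their deviations from the group means. Such correlations cannot show how the cultures were made, so pairing remains unknown. With the replicate block 0 genes had an unadjusted p under 0.05, the count over all probe sets was 474 rather than 685, and the p of Star was 0.129. With array weights the differences became 0.059 for Upk3b, 0.037 for Wt1, -0.10 for Bnc1, 0.070 for Krt8 and 0.44 for Amhr2. Across the 6 fits that each left out 1 array, 0 to 1 genes had an unadjusted p under 0.05 (Aldh1a2 at -0.92 without unstimulated replicate 2 and Lhx9 at -0.79 without CCL6 replicate 3), where 1.93% to 4.53% of all probe sets did, 3 to 7 had groups without overlap, where 14.1% to 20.2% of all probe sets did, and the median difference ran from -0.083 to 0.11. The differences that changed sign in these fits ran from -0.086 to 0.30 for Msln, -0.32 to 0.20 for Upk3b, -0.085 to 0.86 for Upk1b, -0.60 to 0.0053 for Lrrn4, -0.78 to 0.25 for Cd200, -0.77 to 0.030 for Aldh1a1, -0.48 to 0.10 for Igfbp5, -0.22 to 0.15 for Wt1, -0.30 to 0.30 for Bnc1, -0.0023 to 0.75 for Gata4, -0.10 to 0.58 for Gata6, -0.41 to 0.022 for Lhx2, -0.79 to 0.33 for Lhx9, -0.22 to 0.20 for Krt8, -0.18 to 0.48 for Ocln, -0.96 to 1.13 for Amhr2, -0.20 to 0.18 for Esr1 and -0.21 to 0.49 for Lgr5. The count of genes above background was 23 without CCL6 replicate 2 and 24 in the other 5 fits. Both of the following alternatives were chosen after seeing the data. Without both arrays numbered 3, 6 of the 32 genes had an unadjusted p under 0.05 (11.2% of all probe sets did), 13 had groups without overlap (42.3% of all probe sets did), the median difference was 0.11, and the differences of Upk3b, Lrrn4, Wt1, Bnc1, Krt8, Ocln and Amhr2 became 0.41, 0.24, 0.30, -0.049, 0.37, -0.21 and 2.11. With a block for the sign of the first principal component 2 of the 32 genes had an unadjusted p under 0.05 (6.15% of all probe sets did), and the differences became -0.054 for Msln, -0.10 for Upk1b, 0.032 for Aldh1a1, -0.014 for Gata4, -0.29 for Gata6, 0.22 for Lhx9 and 0.073 for Esr1. The cause of these changes was not tested.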
